A study of Mus musculus with 15 samples.

Results

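The 58 genes described here build or run the machinery of mitosis: condensin, the kinetochore, the spindle checkpoint, the chromosomal passenger complex, mitotic kinases, kinesins, spindle factors, cytokinesis proteins and the regulators of anaphase. They were taken by symbol from a table of 17594 genes, and all 58 listed symbols were present. Their levels were read in RNA of sorted splenic CD4+ T cells of C57BL/6 mice: regulatory T cells (Treg), which depend on the factor Foxp3, and conventional T cells (Tconv). Knockout (KO) animals combined a conditional Hpgd allele with a FOXP3-Cre-YFP driver, and control animals are labelled wild-type (WT). Hpgd encodes hydroxyprostaglandin dehydrogenase, which breaks down prostaglandin E2. The driver acts in cells that express Foxp3, so the Tconv of KO animals are neighbours of the targeted cells and are not themselves the target. Treg were sequenced in 4 libraries of each genotype, Tconv in 3 WT and 4 KO libraries. The labels give neither the animal behind each library nor whether the control animals carry the driver.

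Most CD4 T cells of an unchallenged spleen rest outside the cell cycle, while a part of the Treg divides. When a cell prepares to divide, it switches on a common programme: condensin compacts the chromosomes, kinetochores tie them to spindle microtubules, and the spindle checkpoint holds anaphase until every chromosome is attached. The anaphase-promoting complex then releases the sister chromatids, and the central spindle and a contractile ring split the cell. Transcripts of these genes are made mainly in late S, G2 and M phase, so in bulk RNA their level moves with the share of dividing cells and with the amount made per cell. Fewer dividing cells and less RNA per dividing cell cannot be told apart in such samples.

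Many promoters of this programme carry a short element near the transcription start, the cell cycle genes homology region, with the letters TTTGAA or TTCGAA. It is bound by the MuvB core of the DREAM complex in resting cells and of B-MYB and FOXM1 complexes in dividing cells. CCAAT boxes, bound by NF-Y, often lie upstream of it. RefSeq promoters of 300 bases (250 before and 50 after the start, GRCm38.p6) were matched by symbol for 49 of the 58 genes. Cdca2, Smc4, Spc24, Aurkb, Incenp, Pbk, Cdc25c, Kif20a and Tpx2 had no entry. Shown first, because they put the element and its place near the start in view, are 8 promoters from 130 bases before to 30 bases after the start. Each belongs to the gene of its role with the highest level per length among those with the element. That element had to lie in the window and within 50 bases of the start. Left out were therefore Ncapd2, with its element 123 bases before the start, and Cdca3, with its element past the window's end. Top2a, Cdca8, Kif20b, Ckap2l and Racgap1 rose in Treg KO, while Cenpa, Bub3 and Cdc20 did not pass the test there. Capitals mark the CCAAT box, the element TTTGAA and its variant TTCGAA on either strand, so that ATTGG (the box on the other strand) and the complement TTCAAA are in capitals too. Each line runs 5′ to 3′ along the gene.
Top2a: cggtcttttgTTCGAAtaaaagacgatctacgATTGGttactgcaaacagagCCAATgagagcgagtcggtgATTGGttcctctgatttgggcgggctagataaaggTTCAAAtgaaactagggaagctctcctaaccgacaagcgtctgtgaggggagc
Cdca8: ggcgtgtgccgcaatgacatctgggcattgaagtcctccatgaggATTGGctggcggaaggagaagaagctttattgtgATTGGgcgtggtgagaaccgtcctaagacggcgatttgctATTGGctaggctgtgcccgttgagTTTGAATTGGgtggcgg
Kif20b: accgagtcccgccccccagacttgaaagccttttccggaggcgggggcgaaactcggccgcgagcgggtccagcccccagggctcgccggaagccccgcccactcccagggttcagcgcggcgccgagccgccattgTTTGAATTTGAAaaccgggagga
Ckap2l: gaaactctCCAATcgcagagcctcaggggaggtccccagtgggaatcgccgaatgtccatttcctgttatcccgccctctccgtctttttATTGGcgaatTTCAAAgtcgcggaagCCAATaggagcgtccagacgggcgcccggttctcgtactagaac
Racgap1: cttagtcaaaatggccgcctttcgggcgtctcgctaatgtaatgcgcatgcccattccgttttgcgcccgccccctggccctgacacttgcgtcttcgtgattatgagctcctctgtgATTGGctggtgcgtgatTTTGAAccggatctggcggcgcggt
Cenpa: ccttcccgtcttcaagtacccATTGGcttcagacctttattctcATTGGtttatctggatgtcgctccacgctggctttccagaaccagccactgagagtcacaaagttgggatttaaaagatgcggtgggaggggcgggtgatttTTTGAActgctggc
Bub3: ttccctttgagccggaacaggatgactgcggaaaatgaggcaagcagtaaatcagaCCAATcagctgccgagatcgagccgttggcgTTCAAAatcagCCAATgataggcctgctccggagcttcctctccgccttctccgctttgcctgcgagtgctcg
Cdc20: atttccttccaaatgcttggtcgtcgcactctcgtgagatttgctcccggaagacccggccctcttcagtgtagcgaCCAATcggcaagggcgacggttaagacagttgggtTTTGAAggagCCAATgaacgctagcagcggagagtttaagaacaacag
The windows lie at chr11:99024160-99024319 on the reverse strand for Top2a, chr4:124936888-124937047 on the reverse strand for Cdca8, chr19:34922228-34922387 on the forward strand for Kif20b, chr2:129297183-129297342 on the reverse strand for Ckap2l. The other windows lie at chr15:99651627-99651786 on the reverse strand for Racgap1, chr5:30666756-30666915 on the forward strand for Cenpa, chr7:131560240-131560399 on the forward strand for Bub3, chr4:118437314-118437473 on the reverse strand for Cdc20. In Cdca8 the TTTGAA match and the next ATTGG match share 1 base. In Kif20b TTTGAA stands 2 times in direct succession, and no CCAAT lies in the window.

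TTTGAA or TTCGAA, on either strand, was present in 40 of the 49 promoters (81.6%). The share was 13.9% among the promoters of 8614 genes tested in these libraries and 19.4% among all 27025 promoters. CCAAT was present in 34 of 49 (69.4%), against 39.4% of the genes tested, and both elements together in 33 of 49 (67.3%), against 5.87%. Of the 53 matches to TTTGAA or TTCGAA, 39 began between 50 bases before and 45 bases after the start, and their median position was 9 bases before it. CCAAT matches had a median position 68 bases before the start. Among other mitosis genes on a second list the element was present in 42.9% of promoters, and among DNA replication genes in 24%. The letters were not found in the windows of Ncaph, Cenpe, Nuf2, Mad2l1, Birc5, Plk4, Melk, Tacc3 and Nusap1. These are letter matches and describe the promoters, not binding.

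**Figure D1:**
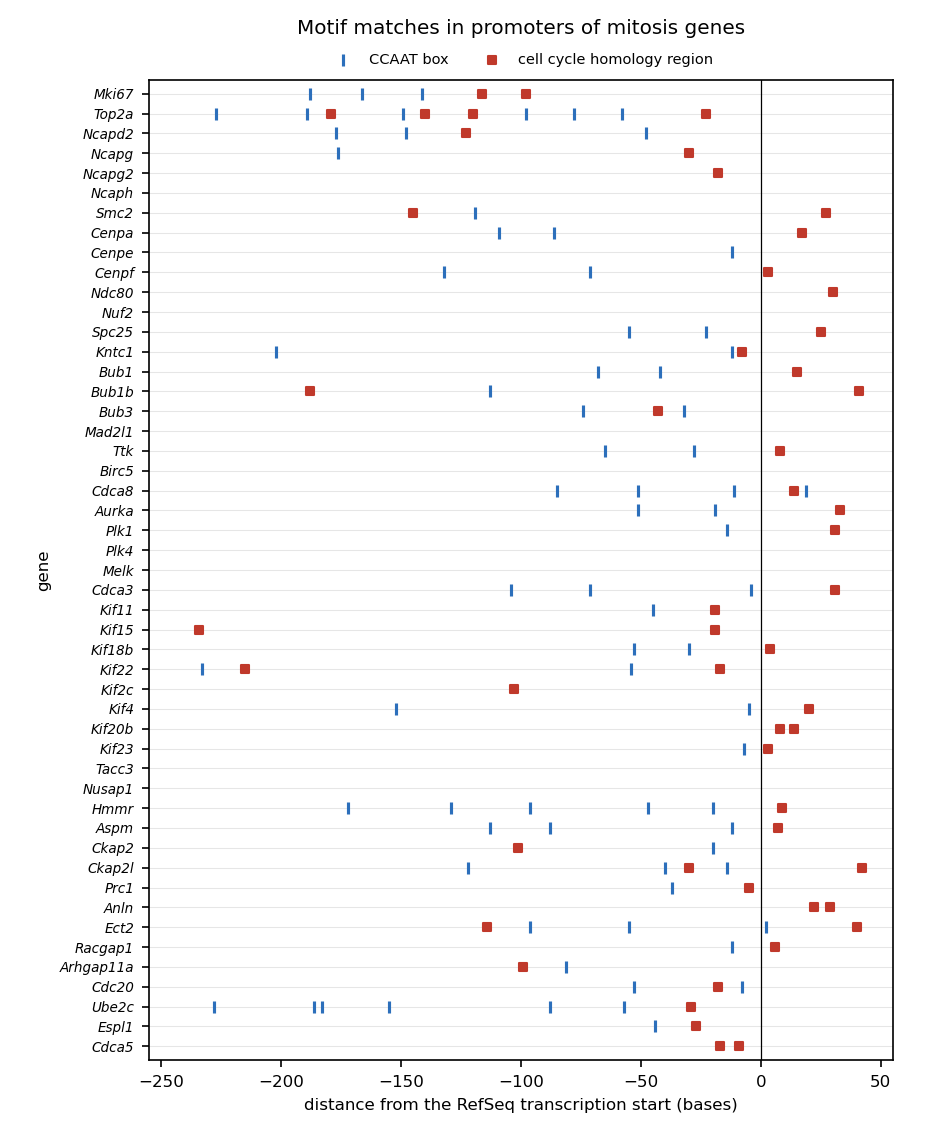
Positions of CCAAT (blue bars) and of TTTGAA or TTCGAA (red squares, the cell cycle genes homology region) in the promoters of 49 mitosis genes, in bases from the RefSeq transcription start, either strand. Of 53 red squares, 39 lie between 50 bases before and 45 bases after the start.

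Depth and identity were checked over the whole libraries. Reads assigned to genes ran from 6.43 to 10.0 M reads in Treg WT, 2.64 to 4.71 in Treg KO, 6.60 to 11.1 in Tconv WT and 2.95 to 10.3 in Tconv KO. Treg KO was therefore the shallowest group. Hpgd had 1 read in 1 Treg WT library and 0 reads in the other 14, so the targeted gene cannot check the labels. Foxp3 was between 3314 and 4800 in Treg and between 14.4 and 69.5 in Tconv. Xist was between 8644 and 19007 in KO and at most 5.52 in WT. Ddx3y was 0 in every KO library and between 1154 and 1520 in WT. Sex and genotype therefore coincide and cannot be told apart. The labels also number WT samples from 483 to 490 and KO samples from 574 to 581, so sample number and genotype coincide too. B cell marker genes summed to between 77.4 and 111 in Treg WT and between 129 and 172 in Treg KO, most of it Cd79b. Their part in the differences below was not tested. Values are normalized read counts, which are counts divided by 1 size factor per library. Differences are on log2(value + 1) from limma with a Benjamini-Hochberg adjusted p over 11314 genes, with ± as the standard error, and a gene passed where that p was under 0.05. Of the 58 genes, 57 passed the filter on low values and were tested. The filter asked for a value of at least 10 in 3 or more libraries. Pbk and Ttk met it only through Treg KO libraries. Spc24, Spc25, Bub1, Ckap2, Cdca5 and Kif2c reached 10 elsewhere too, but in too few libraries to meet the filter without Treg KO. Among all of these only Kif2c reached 10 in a WT library. They were therefore tested at least in part through their level in Treg KO.

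In Treg, 46 of the 57 tested genes were higher in KO and 0 were lower, where 10.4% of all genes tested were higher. Their median log2 difference was 1.43, and the median over all genes was 0.00. In 41 of the 57 every KO library lay above every WT library, against 13.2% of all genes. edgeR passed 46 genes and DESeq2 47 on the recovered reads. The 46 include Pbk, Ttk, Spc24, Bub1, Ckap2 and Cdca5, which met the filter only with Treg KO libraries counted. With no filter on low values 45 genes passed, Pbk and Ttk among them. With all libraries thinned to the depth of the shallowest, 40 genes passed. Of the 46, 32 passed under all 24 alternative settings. Without Treg WT replicate 1, 2 or 3, the number that passed was 35, 39 or 38. Without replicate 4, the WT library with the highest mitosis gene levels, 44 genes passed.

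**Figure D2:**
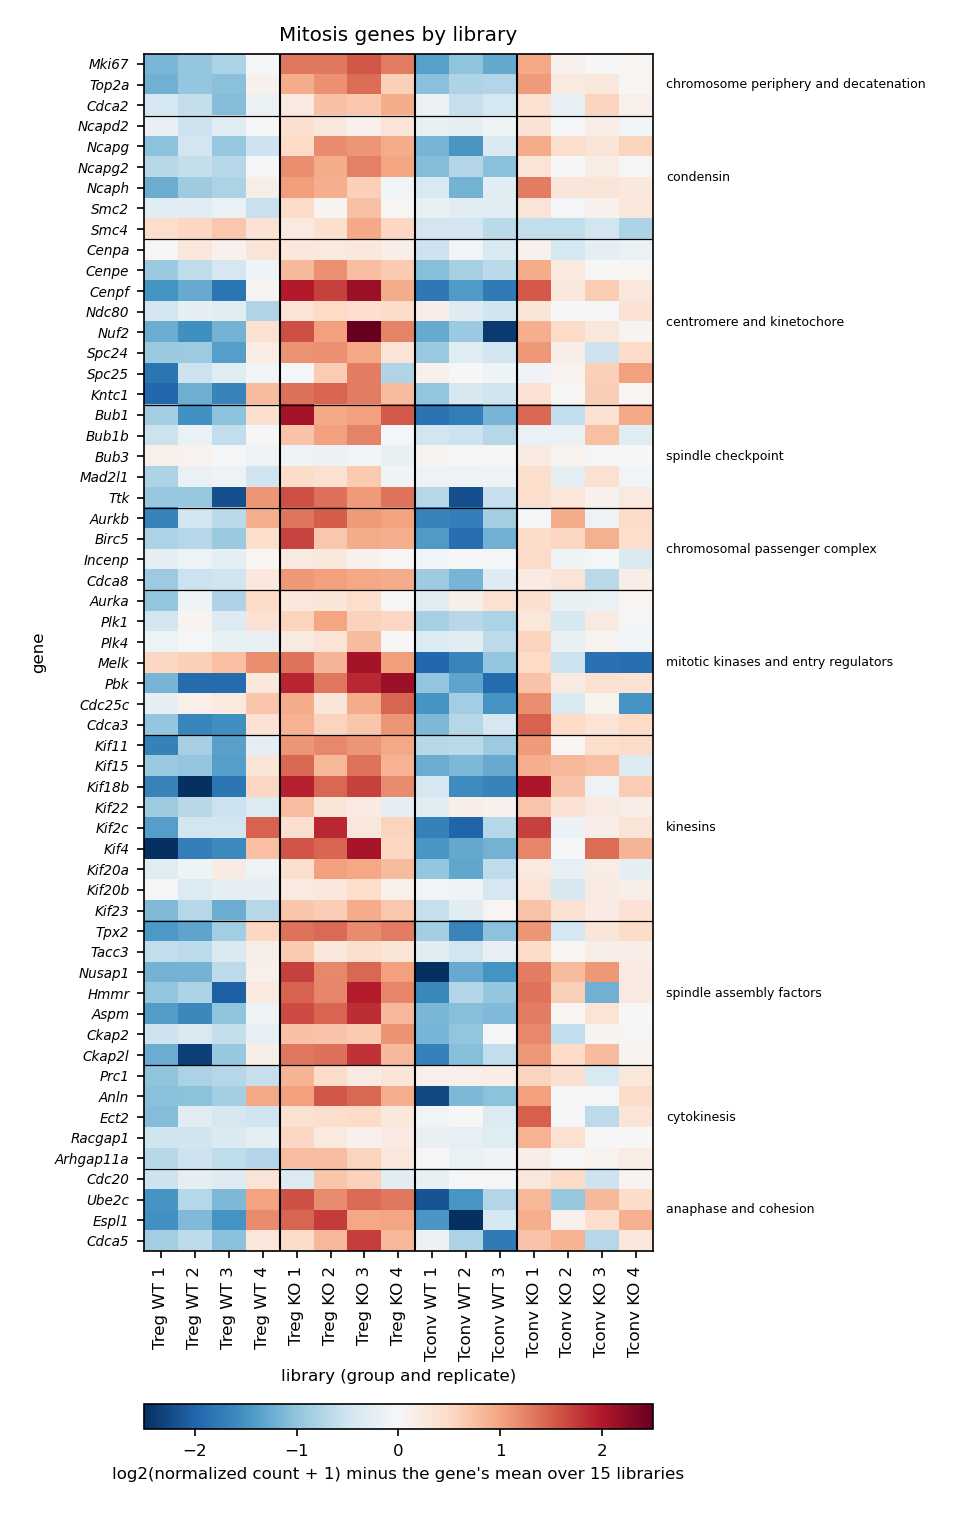
Each cell gives log2(normalized count + 1) of 1 gene in 1 library minus that gene's mean over 15 libraries, with red above and blue below it, genes in rows by role and libraries in columns by group. The 4 Treg KO columns are red in most rows, and Treg WT replicate 4 is paler than the other Treg WT columns.

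The chromosome periphery genes and the decatenating topoisomerase all rose (3 of 3). Mki67 encodes Ki-67, the protein that coats mitotic chromosomes and keeps them apart (chromosome 7, 135689784 to 135716361, GRCm38). Its normalized counts were 156, 177, 198 and 333 in Treg WT and 862, 858, 1017 and 856 in Treg KO. The lowest KO library was above the highest WT library by a wide margin, with a log2 difference of 2.11 ± 0.22 (adjusted p = 2.3e-05). Top2a, which untangles sister chromatids, had 87.0, 102, 96.6 and 217 in WT and 382, 444, 532 and 305 in KO. WT replicate 4 stood above its group but below every KO library, and the difference was 1.79 ± 0.27 (adjusted p = 7.0e-04). Cdca2, which brings a phosphatase to anaphase chromatin, was between 7.56 and 15.1 in WT and between 20.3 and 33.4 in KO. Its difference of 1.21 ± 0.26 (adjusted p = 0.0055) no longer passed with reads thinned to 1 depth.

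Condensin genes split into the 2 paralogous sets of the complex and their shared core. Of the 6, 5 rose. Ncapg2, a subunit of condensin II, was 27.4, 29.7, 27.3 and 44.3 in Treg WT and 102, 87.3, 110 and 90.9 in Treg KO. No library overlapped between the groups, and the difference was 1.59 ± 0.18 (adjusted p = 4.0e-05). Its condensin I counterpart Ncapg was 11, 16.6, 11.6 and 16 in WT and 33.4, 54.6, 51.7 and 45.5 in KO, a difference of 1.68 ± 0.26 (adjusted p = 8.6e-04). The annotated exons of Ncapg share 13.4% of their bases with Lcorl on the opposite strand, and the kit does not mark strand. Lcorl itself differed by 0.07 ± 0.15 (adjusted p = 0.76). Ncaph, the kleisin of condensin I, rose by 1.32 ± 0.35 (adjusted p = 0.016) with groups that overlapped, and without WT replicate 1 it did not pass. Ncapd2 rose by 0.53 ± 0.12 (adjusted p = 0.006). The 2 ATPase subunits, which both condensins share, did not move alike. Smc2 was 195, 200, 213 and 162 in WT and 334, 250, 396 and 245 in KO, a rise of 0.64 ± 0.14 (adjusted p = 0.0068). Smc4 (chromosome 3, 69004738 to 69034623) was 6235, 6619, 7332 and 5899 in WT and 5424, 6043, 8898 and 6590 in KO. Its groups overlapped fully, with a difference of 0.03 ± 0.13 and a 95% interval from -0.24 to 0.30, and the sign turned to -0.02 without WT replicate 4. Per kilobase of its longest transcript Smc4 stood at 1511 in Treg WT, and Smc2 at 35.7. No other gene of the 58 was above 120 per kilobase in that group, so Smc4 is given apart in the sums of reads below.

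At the centromere and kinetochore 6 of 8 genes rose. Cenpf, a large protein of the outer kinetochore and the nuclear matrix, was 6.85, 8.28, 5.23 and 22.2 in Treg WT and 87.0, 71.6, 97 and 41.5 in Treg KO. All KO libraries were above all WT libraries, and the difference was 2.83 ± 0.40 (adjusted p = 3.9e-04). Cenpe, the kinesin that carries chromosomes to the spindle equator, was between 21.2 and 38.1 in WT and between 65.5 and 92.2 in KO, a difference of 1.37 ± 0.22 (adjusted p = 0.0012). The 4 subunits of the Ndc80 complex, which grips microtubule ends, are Ndc80, Nuf2, Spc24 and Spc25. Nuf2 was 2.74, 2.07, 2.91 and 10.6 in WT and 26.1, 17.0, 49.6 and 20.1 in KO, a difference of 2.49 ± 0.47 (adjusted p = 0.0029). Ndc80 rose from between 27.5 and 40.0 to between 59.5 and 66.7, a difference of 0.85 ± 0.17 (adjusted p = 0.0046). Spc24 rose by 1.65 ± 0.42 (adjusted p = 0.014). Spc25, the least certain of the complex, ranged from 4.01 to 19.4 in KO and differed by 0.97 ± 0.47 (adjusted p = 0.15). Kntc1, part of the complex that brings dynein to kinetochores, was 4.11, 7.59, 5.23 and 33.7 in WT and 50.8, 53.4, 47.4 and 33.4 in KO. Here WT replicate 4 reached the lowest KO library, and the difference was 2.24 ± 0.45 (adjusted p = 0.0042). Cenpa, the histone variant that marks the centromere, was 126, 150, 133 and 154 in WT and 149, 147, 149 and 139 in KO. Those values overlapped, with a difference of 0.06 ± 0.13 (95% interval from -0.21 to 0.32).

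Of the 5 spindle checkpoint genes 4 rose. Bub1, the kinase that recruits the checkpoint to unattached kinetochores, was 2.74, 1.38, 2.33 and 7.98 in Treg WT and 27.6, 12.1, 12.9 and 18.7 in Treg KO. The groups did not overlap, and the difference was 2.15 ± 0.50 (adjusted p = 0.0089). Mad2l1, the subunit that blocks Cdc20, was between 39.7 and 62.2 in WT and between 64.2 and 108 in KO, a difference of 0.74 ± 0.20 (adjusted p = 0.016) that did not pass without WT replicate 1. Bub1b rose by 1.05 ± 0.29 (adjusted p = 0.018) and Ttk, the kinase that starts checkpoint signalling, by 2.10 ± 0.59 (adjusted p = 0.021). Both had overlapping groups and lost the call without WT replicate 1 and without WT replicate 3. Ttk reached the filter value of 10 only in Treg KO libraries, so it was tested through its level there. Bub3, a WD-repeat protein, was 519, 504, 464 and 447 in WT and 438, 427, 450 and 417 in KO. It was the one tested gene with a negative difference, -0.16 ± 0.07 (adjusted p = 0.12), and it stood at 120 per kilobase in Treg WT against 6.97 for Mad2l1 and 1.05 for Bub1. With a trend on GC content removed, the difference of Bub3 was -0.26 and passed (adjusted p = 0.013).

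The chromosomal passenger complex corrects wrong attachments of chromosomes to the spindle. Its kinase Aurkb, its anchor Birc5 (survivin) and its helper Cdca8 (borealin) rose, 3 of 4 genes. Cdca8 was 11.6, 15.2, 15.7 and 27.5 in Treg WT and 49.3, 47.3, 45.2 and 44.1 in Treg KO. The KO libraries lay close together above all WT libraries, with a difference of 1.43 ± 0.28 (adjusted p = 0.0038). Birc5 was 10.3, 11, 9.31 and 25.7 in WT and 62.4, 30.3, 36.6 and 36.1 in KO, a difference of 1.55 ± 0.32 (adjusted p = 0.0043). Aurkb was between 2.74 and 21.3 in WT and between 22.7 and 32.8 in KO. That gap was narrow, and the difference of 1.70 ± 0.45 (adjusted p = 0.015) did not pass without WT replicate 1. Incenp, the scaffold of the complex, was 196, 211, 198 and 239 in WT and 271, 278, 250 and 234 in KO. It differed by 0.29 ± 0.14 (adjusted p = 0.14), and it stood at 61.2 per kilobase in Treg WT against 4.22 to 5.21 for the other 3.

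Mitotic kinases and entry regulators were the role with the smallest share of rises, 3 of 6 tested. Pbk, a kinase active in mitosis, was 0.685, 0, 0 and 3.55 in Treg WT and 13.1, 8.49, 12.9 and 16 in Treg KO. Every KO library was above every WT library, and the difference was 3.0 ± 0.51 (adjusted p = 0.0015). Pbk reached the filter value of 10 only in Treg KO libraries, so it was tested through its level there. Cdca3, which helps to degrade the mitotic inhibitor Wee1, was 8.22, 4.83, 5.23 and 22.2 in WT and 31.9, 25.5, 28 and 37.4 in KO, a difference of 1.74 ± 0.39 (adjusted p = 0.0073). Plk1, the kinase that drives mitotic entry and spindle formation, was between 13 and 23.9 in WT and between 26.7 and 37.6 in KO. Its difference of 0.75 ± 0.24 (adjusted p = 0.036) lost the call in 8 of the 24 settings. Plk4, the kinase that starts centriole duplication, was between 48.8 and 54.5 in WT and between 56.2 and 97 in KO. These groups did not overlap, but the difference of 0.47 ± 0.19 did not pass (adjusted p = 0.082). Aurka differed by 0.60 ± 0.30 (adjusted p = 0.17) and Melk by 0.58 ± 0.46 (adjusted p = 0.38), both with overlap. Cdc25c, the phosphatase that activates Cdk1, was between 1.37 and 3.55 in WT and between 2.43 and 6.69 in KO and was too low to test.

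Among the kinesins 8 of 9 genes rose. Kif23, the kinesin of the central spindle, was 19.2, 25.5, 17.4 and 25.7 in Treg WT and 69.6, 65.5, 81.9 and 68.2 in Treg KO. The groups were far apart, with a difference of 1.67 ± 0.18 (adjusted p = 4.0e-05). Kif11 (Eg5), which pushes the spindle poles apart, was 13.7, 25.5, 17.4 and 39.0 in WT and 100, 107, 101 and 90.9 in KO, a difference of 2.12 ± 0.27 (adjusted p = 1.6e-04). Kif15, which can share that task, was between 8.14 and 28.4 in WT and between 41.2 and 63.8 in KO, a difference of 1.87 ± 0.35 (adjusted p = 0.0024). Kif18b, which shortens astral microtubules, had the largest difference of the 57 genes, 3.03 ± 0.62 (adjusted p = 0.0045). Its WT values were 1.37, 0, 1.16 and 9.75 and its KO values 27.6, 19.4, 23.7 and 16, so the size rests on a low base. Kif4, a chromosome-bound kinesin, rose by 2.69 ± 0.57 (adjusted p = 0.0058) with WT replicate 4 at 16 inside the KO range of 13.4 to 40.9. Kif20a rose by 0.88 ± 0.20 (adjusted p = 0.008), Kif22 by 0.88 ± 0.22 (adjusted p = 0.012) and Kif20b by 0.47 ± 0.15 (adjusted p = 0.034). Kif20b lost the call in 6 settings and Kif22 in 1, the thinned reads. Of the exonic bases of Kif20a 29.3% lie opposite Cdc23, which differed by 0.02 ± 0.06 (adjusted p = 0.88), and of those of Kif4 15.1% lie opposite Pdzd11, which differed by 0.15 ± 0.13 (adjusted p = 0.43). Kif2c, the kinesin that dismantles wrongly attached microtubules, was 1.37, 3.45, 3.49 and 16 in WT and 7.25, 21.8, 6.46 and 8.02 in KO. One library stood high in each group, and the difference of 1.0 ± 0.61 did not pass (adjusted p = 0.25).

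All 7 spindle assembly factors rose, and none had overlapping groups. Aspm, which holds spindle poles together, was 8.22, 6.90, 11.1 and 21.3 in Treg WT and 74.0, 65.5, 86.2 and 41.5 in Treg KO. The lowest KO library was above the highest WT library, and the difference was 2.47 ± 0.35 (adjusted p = 3.9e-04). Ckap2l was 4.11, 1.38, 5.23 and 12.4 in WT and 29.0, 30.3, 40.9 and 20.1 in KO, a difference of 2.42 ± 0.45 (adjusted p = 0.0024). Tpx2, the activator of Aurora A at the spindle, was 7.54, 8.28, 11.6 and 31.9 in WT and 58, 60.7, 51.7 and 54.8 in KO, a difference of 2.09 ± 0.39 (adjusted p = 0.0028). Aurka itself, its partner, is among the genes that did not pass. Nusap1, which bundles spindle microtubules, was between 6.17 and 16.8 in WT and between 32.1 and 52.2 in KO, a difference of 2.06 ± 0.41 (adjusted p = 0.0036). Hmmr rose by 2.36 ± 0.52 (adjusted p = 0.0065), Tacc3 by 0.78 ± 0.18 (adjusted p = 0.0077) and Ckap2 by 1.22 ± 0.37 (adjusted p = 0.03). Ckap2 lost the call in 7 settings.

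Of the 5 cytokinesis genes 4 rose. Arhgap11a, a GTPase-activating protein (chromosome 2, 113831492 to 113848661), had the smallest p of the 57. Its values were 46.6, 53.1, 48.3 and 45.2 in Treg WT and 131, 131, 112 and 92.3 in Treg KO. The WT libraries were tight and far below KO, with a difference of 1.24 ± 0.13 (adjusted p = 1.9e-05). Prc1, which cross-links the antiparallel microtubules of the central spindle, was 26.7, 31.0, 32.6 and 36.3 in WT and 98.6, 75.2, 62.5 and 66.9 in KO, a difference of 1.22 ± 0.20 (adjusted p = 0.0011). Its exons share 11.1% of their bases with Rccd1 on the opposite strand, and Rccd1 differed by -0.39 ± 0.23 (adjusted p = 0.23). Racgap1, the partner of Kif23 in centralspindlin, was between 100 and 120 in WT and between 153 and 205 in KO, a difference of 0.67 ± 0.16 (adjusted p = 0.011). Anln, which organises the contractile ring, rose by 1.71 ± 0.46 (adjusted p = 0.018) with WT replicate 4 at 16.8 above the lowest KO library. Ect2, which acts at the cleavage site, was 11.6, 20.7, 18.6 and 17.7 in WT and 33.4, 35.2, 36.6 and 30.8 in KO. The groups did not overlap, yet the difference of 0.97 ± 0.34 narrowly failed to pass (adjusted p = 0.053).

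Among the regulators of anaphase and cohesion 3 of 4 genes rose. Espl1, separase, the protease that cuts cohesin, was 3.43, 4.83, 3.49 and 27.5 in Treg WT and 33.4, 41.2, 23.7 and 24.1 in Treg KO. WT replicate 4 lay inside the KO range, and the difference was 2.02 ± 0.56 (adjusted p = 0.019). Ube2c, the ubiquitin-conjugating enzyme of the anaphase-promoting complex, was 2.06, 4.14, 2.91 and 16 in WT and 24.7, 18.2, 21.5 and 20.1 in KO, a difference of 1.95 ± 0.53 (adjusted p = 0.018). Of its exonic bases 22.8% lie opposite Tnnc2, whose mean was 0.490 in Treg WT and 0 in the other groups. Cdca5, sororin, which protects cohesion, rose by 1.53 ± 0.47 (adjusted p = 0.03). These 3 calls rest on few reads, and each was lost without WT replicate 1 and without WT replicate 3. Cdc20, which activates the anaphase-promoting complex and is held by the checkpoint, was 17.8, 22.1, 20.4 and 32.8 in WT and 20.3, 42.5, 38.8 and 21.4 in KO. Its difference of 0.35 ± 0.29 did not pass (adjusted p = 0.4).

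The 11 genes that did not pass fell into 2 kinds. Smc4, Cenpa, Bub3, Incenp and Plk4 were well covered, and the upper ends of their 95% intervals were 0.30, 0.32, -0.01, 0.58 and 0.87. For Plk4 every Treg KO library lay above every Treg WT library, so its upper end does not show an absent rise. Intervals were wide for Spc25, Aurka, Melk, Kif2c, Ect2 and Cdc20, which reached 0.96 for Cdc20 and 2.29 for Kif2c. Ordered by mean level into 3 equal groups, 16 of 19 genes rose in the lowest (levels from 4.85 to 18.5), 16 of 19 in the middle and 14 of 19 in the highest (from 47.4 to 4975). The median difference was 1.95, 1.43 and 0.74 in that order, and the median standard error 0.47, 0.34 and 0.17. The genes' transcripts had a median GC content of 46.3%, against 49.5% over all genes. With the GC trend removed 45 genes were higher and 1, Bub3, was lower.

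Genes with and without the promoter letters were set side by side in Treg. Of the 40 genes with TTTGAA or TTCGAA 33 rose, with a median difference of 1.56, and of the 9 without it 7 rose, with a median of 1.32. Of the 9 genes with a promoter entry that did not pass, 7 held the element, among them Cenpa, Bub3 and Cdc20, whose windows are shown above. No test was made of these counts.

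In Tconv 8 of the 57 genes were higher in KO and 0 were lower, where 0.292% of all genes tested were higher. The 8 were Mki67, Ncapg, Ncapg2, Cenpe, Cenpf, Birc5, Kif15 and Nusap1, and each of them rose in Treg as well. The median difference over the 57 was 0.97, and 55 were positive. In 36 genes every KO library lay above every WT library, against 7.79% of all genes, and 39 had an unadjusted p under 0.05, as had 1358 of all 11314 genes tested. Mki67 was 135, 171 and 141 in Tconv WT and 668, 370, 345 and 358 in Tconv KO, a difference of 1.49 ± 0.24 (adjusted p = 0.0072). KO replicate 1 stood well above the other KO libraries, and all 4 were above WT. Nusap1 had the largest difference there, 2.79 ± 0.44 (adjusted p = 0.0066), from 0.904, 5.80 and 4.81 in WT to 38.5, 27.3, 33.5 and 17.8 in KO. Birc5 rose by 2.09 ± 0.34 (adjusted p = 0.0084), from between 4.22 and 7.56 to between 25.6 and 35.5. Ncapg2 was 20.8, 26.9 and 21.3 in WT and 57.7, 45.6, 51.3 and 44.5 in KO, a difference of 1.08 ± 0.19 (adjusted p = 0.013). Ncapg rose by 1.56 ± 0.28 (adjusted p = 0.017) and Cenpf by 2.34 ± 0.43 (adjusted p = 0.018). Cenpe at 1.16 ± 0.24 (adjusted p = 0.043) and Kif15 at 1.74 ± 0.37 (adjusted p = 0.047) were nearest to the threshold. Cenpe lost the call in 12 of the 24 settings and Kif15 in 17. Several genes just missed it, among them Kif20a at 0.97 ± 0.22 (adjusted p = 0.058), Kif11 at 1.28 ± 0.29 (adjusted p = 0.06) and Top2a at 1.25 ± 0.29 (adjusted p = 0.072).

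None of the 8 Tconv calls held in all 24 settings, and the number of calls moved with the libraries and the tool. DESeq2 passed 17 genes, a fit of the Tconv groups alone 3, and reads thinned to 1 depth 4. Leaving out Tconv WT replicate 1, 2 or 3 left 2, 3 or 4 genes, and leaving out Treg WT replicate 4, which only lends its spread to this fit, gave 13. Tconv KO replicate 1 was the highest of its group for 44 of the 57 genes, and without it 6 genes passed. That library also had Ikzf2 at 3195 and Ctla4 at 764, against 366 to 1215 and 188 to 434 in the other Tconv KO libraries and 738 to 870 and 266 to 345 in Tconv WT. Both genes are higher in Treg and in activated T cells. Foxp3 was 47.2 there and 69.5, 27.6 and 18.9 in the other Tconv KO libraries, with 14.4 to 20.6 in Tconv WT. Il2ra, the remaining Treg marker, was not raised in that library. It was 55.9 there and 69.5, 57.2 and 67.2 in the other Tconv KO libraries, with 44.3 to 64.8 in Tconv WT. The part of these marker differences in the Tconv result was not tested.

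**Figure D3:**
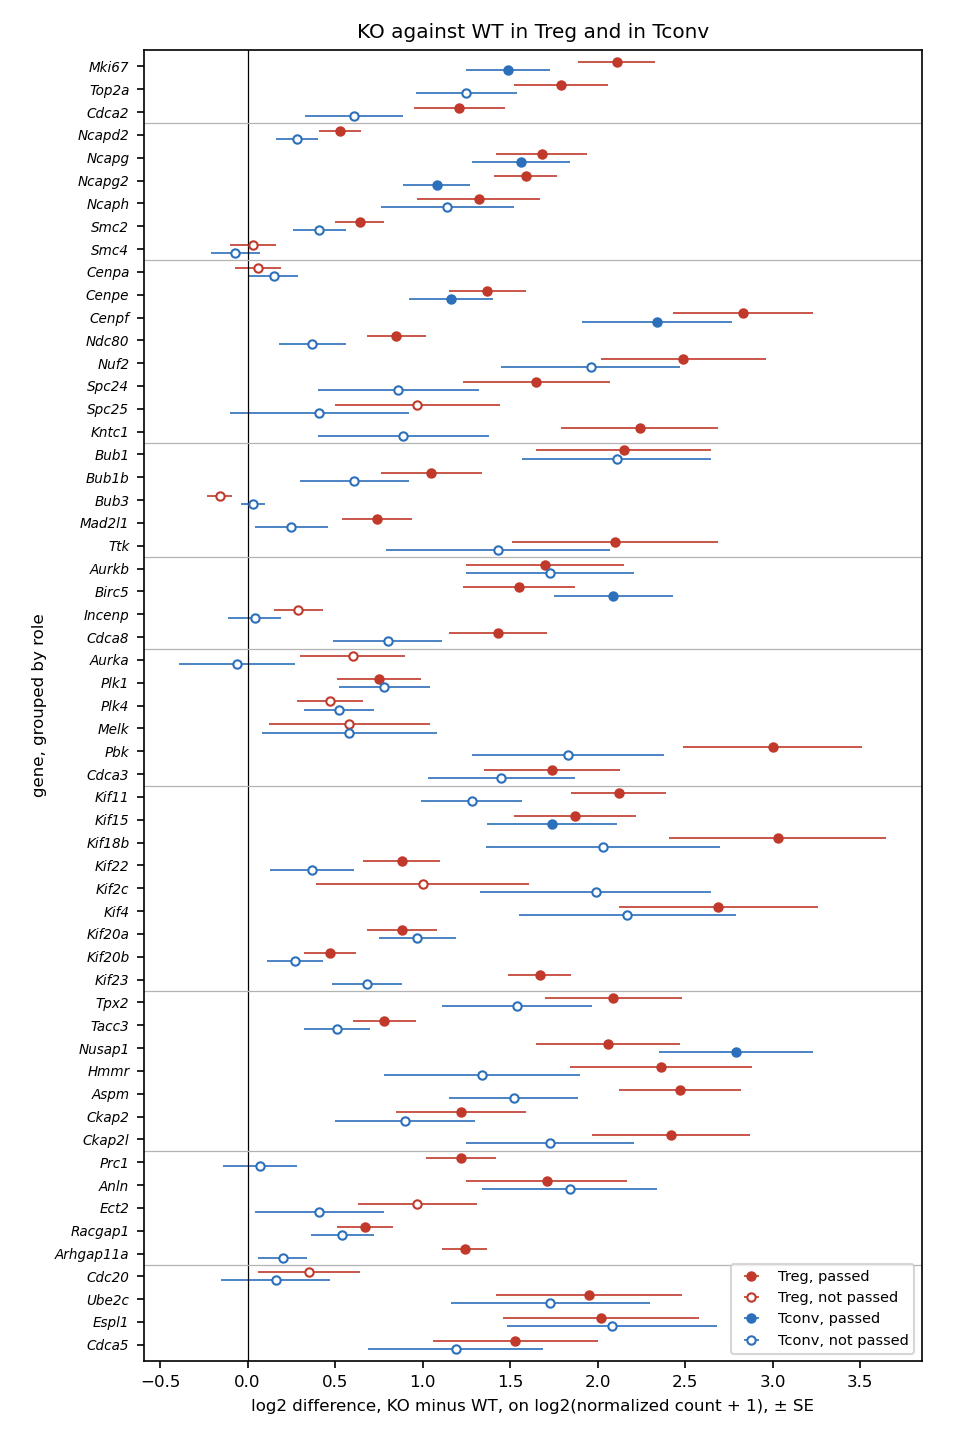
Log2 difference of KO minus WT with its standard error for 57 mitosis genes in Treg (red) and Tconv (blue), on log2(normalized count + 1); filled points passed at an adjusted p under 0.05. Of the red points 46 are filled and of the blue points 8, and Prc1, Arhgap11a and Kif23 show the red and blue points far apart.

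Whether KO and WT differed more in Treg than in Tconv was tested as an interaction, and 1 of the 57 genes passed, where 0.0354% of all genes tested were higher. That gene was Arhgap11a. Its Tconv values were 75.9, 67.5 and 71.5 in WT and 85.7, 76.3, 80.8 and 86.7 in KO, a difference of 0.20 ± 0.14 (adjusted p = 0.57). The rise in Treg exceeded this by 1.04 ± 0.19 (adjusted p = 0.036). The call was lost in 13 of the 24 settings, among them no filter on low values, thinned reads and 11 of the 15 fits without a library. Prc1 was 59.7, 59.6 and 61.2 in Tconv WT and 80.4, 71.8, 41.4 and 66.7 in Tconv KO, so that its groups overlapped there. The interaction of Prc1 was 1.15 ± 0.29 and did not pass (adjusted p = 0.2). Kif23 gave 0.99 ± 0.27 (adjusted p = 0.26) and Kif11 0.84 ± 0.39 (adjusted p = 0.58). Over the 57 genes the interaction was positive in 46, with a median of 0.35, and over all genes the median was -0.01. For the other 56 genes a difference between the cell types was not shown.

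Between the WT groups 4 of 57 genes were higher in Treg, where 10.0% of all genes were, and 3 were lower, where 8.06% were, so both shares were near those of all genes. The other 50 did not pass, which does not show equal levels: Birc5, for example, had a mean of 14.1 ± 7.78 (SD) in Treg WT and 6.03 ± 1.69 in Tconv WT. Smc4 was the most abundant of the 58 genes in both cell types, at 3345, 3292 and 2872 in Tconv WT, which is 1.04 ± 0.14 lower than in Treg WT on the log2 scale (adjusted p = 5.7e-05). No library of the cell types overlapped. Melk, a kinase of stem and dividing cells, was 24.7, 26.2, 29.1 and 39.0 in Treg WT and 3.62, 4.74 and 8.25 in Tconv WT, a difference of 2.27 ± 0.50 (adjusted p = 0.0042). Kif20a, the kinesin that moves the passenger complex to the midzone, was higher in Treg by 0.89 ± 0.22 (adjusted p = 0.0089). Cdc23, opposite to it, was higher by 0.25 ± 0.06 (adjusted p = 0.013). Cenpa was higher by 0.51 ± 0.14 (adjusted p = 0.015). Lower in Treg WT were 3 genes: Prc1 by -0.91 ± 0.21 (adjusted p = 0.0067), Arhgap11a by -0.56 ± 0.14 (adjusted p = 0.0087) and Kif23 by -0.68 ± 0.20 (adjusted p = 0.026). Prc1, for example, was at most 36.3 in Treg WT and at least 59.6 in Tconv WT. These are the genes with the smallest p of the interaction, and both comparisons contain the same Treg WT and Tconv WT libraries. Smc4 and Melk passed in all 24 settings, while the other 5 each lost the call in at least 1.

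**Figure D4:**
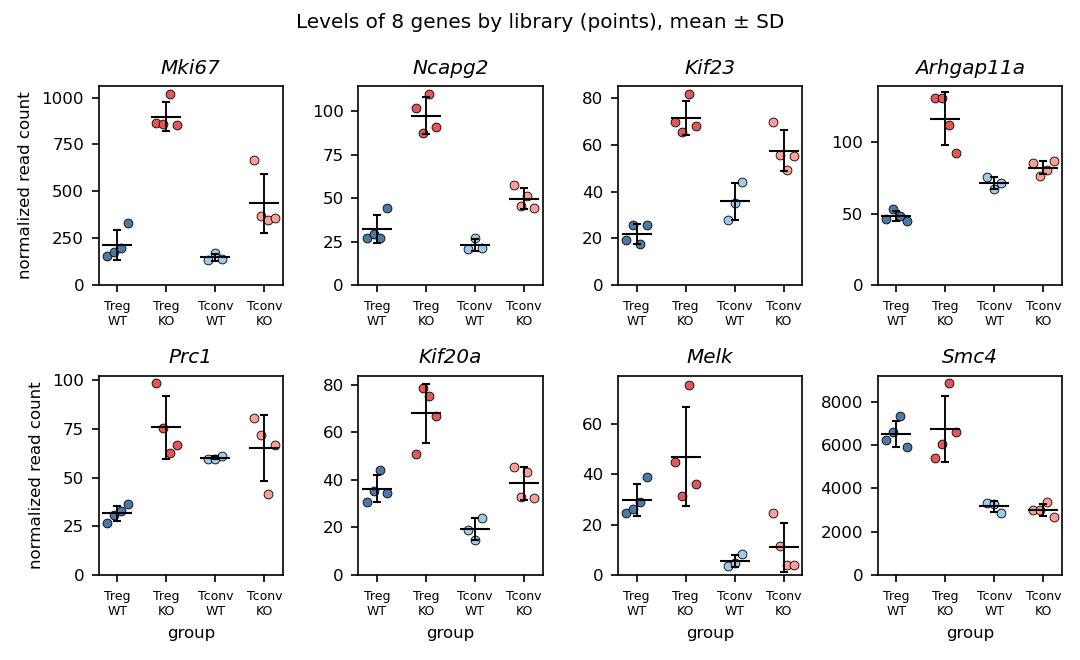
Normalized read counts of 8 genes in each library (points) with the group mean and SD (bars), axes from 0. Mki67, Ncapg2 and Kif23 have every KO library above every WT library in both cell types, Arhgap11a and Prc1 are lower in Treg WT than in Tconv WT, and Melk and Smc4 separate Treg from Tconv.

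Between the KO groups 10 of 57 genes were higher in Treg, where 15.8% of all genes were, and 1 was lower, where 15.6% were. The 10 were Mki67, Ncapg2, Smc4, Cenpa, Cdca8, Melk, Pbk, Kif20a, Aspm and Arhgap11a. Pbk met the filter only through Treg KO libraries, so its call here rests on the group that admitted it. It passed in 11 of the 24 settings and Aspm in 15. Of the 11 calls in this comparison, 5 held in all 24. Melk was 45, 31.5, 75.4 and 36.1 in Treg KO and 24.5, 11.4, 3.94 and 3.89 in Tconv KO, a difference of 2.28 ± 0.46 (adjusted p = 0.0016). The gap was therefore close to that in WT. Smc4 differed by 1.14 ± 0.13 (adjusted p = 8.3e-06), again near its WT value. Mki67 differed by 1.10 ± 0.22 (adjusted p = 0.0015) and Ncapg2 by 0.96 ± 0.18 (adjusted p = 7.3e-04), and neither passed between the cell types in WT. Neither passed the interaction, so a gap that depends on genotype was not shown for these genes. Arhgap11a, lower in Treg than in Tconv in WT, was higher in Treg by 0.48 ± 0.13 in KO (adjusted p = 0.0091). The call was lost in the fit of the KO groups alone and with thinned reads. Bub3 was lower in Treg by -0.19 ± 0.07 (adjusted p = 0.044) and lost the call in 15 settings. The count moved from 11 to 5 with thinned reads and to 18 without Tconv KO replicate 1. With Treg and Tconv samples of adjacent numbers and 1 genotype treated as pairs that share a correlation, it was 19.

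Summed over the 57 genes other than Smc4, reads of the mitosis genes made up 413, 439, 431 and 575 per M reads (reads in mega-reads) in Treg WT and 955, 922, 1020 and 814 in Treg KO. They made up 425, 442 and 439 in Tconv WT and 894, 611, 624 and 612 in Tconv KO. In both cell types every KO library was above every WT library. Treg WT replicate 4 was the highest of its group for 46 of the 57 tested genes and Tconv KO replicate 1 for 44. Treg KO had no such library: replicate 3 was highest for 22 genes, replicate 2 for 16, replicate 1 for 15 and replicate 4 for 4. Smc4 alone gave between 1035 and 1256 reads per M reads in Treg WT and between 952 and 1567 in Treg KO, more than the other 57 genes together in each Treg WT library.

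**Figure D5:**
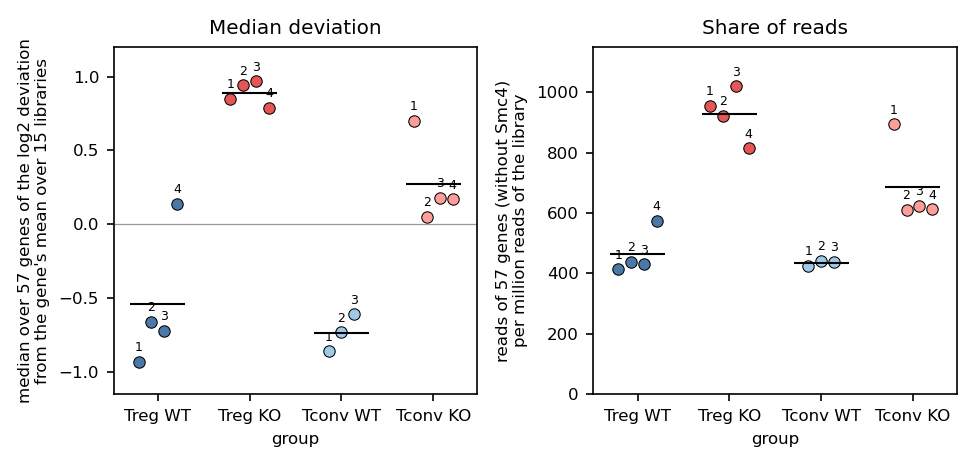
Left, the median over 57 tested mitosis genes of the log2 deviation from each gene's mean over 15 libraries; right, the reads of 57 mitosis genes without Smc4 per M reads of the library. Points are libraries with their replicate number and lines are group means; Treg WT replicate 4 and Tconv KO replicate 1 stand above the rest of their groups.

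Genes outside the 58 were read from 2 further lists, other mitosis genes and DNA replication genes. Over all 11314 genes tested in Treg, 1178 (10.4%) were higher in KO and 1253 were lower. Of 67 other mitosis genes tested, 27 were higher in Treg KO and 1 was lower, Ncaph2 of condensin II at -0.19 ± 0.06 (adjusted p = 0.027). Their median difference was 0.42. Those with the smallest p were Smc3, a core subunit of cohesin, at 0.48 ± 0.08 (adjusted p = 0.0015), and Ccnb2, a mitotic cyclin, at 1.60 ± 0.27 (adjusted p = 0.0015). The kinase Nek2 followed at 2.08 ± 0.36 (adjusted p = 0.0016), and then Casc5, the kinetochore scaffold, at 1.73 ± 0.33 (adjusted p = 0.003). Of 30 DNA replication genes 16 were higher and 1 was lower, Gins4 at -0.36 ± 0.11 (adjusted p = 0.026), with a median of 0.48. Mcm5, a subunit of the replicative helicase, was 268 ± 44.5 (SD, 4 libraries) in Treg WT and 512 ± 14.7 in Treg KO, a difference of 0.94 ± 0.10 (adjusted p = 3.0e-05). Rrm1, which makes deoxyribonucleotides with Rrm2, differed by 0.74 ± 0.09 (adjusted p = 1.3e-04), and Rrm2 by 1.85 ± 0.29 (adjusted p = 9.7e-04). The helicase subunit Mcm4 differed by 0.49 ± 0.08 (adjusted p = 9.4e-04). In Tconv 1 gene of each list rose, where 0.292% of all genes tested were higher. The genes were Ccnb2 at 1.71 ± 0.29 (adjusted p = 0.011) and Rrm2 at 1.84 ± 0.32 (adjusted p = 0.012).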

How the data were processed

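RNA of 15 sorted splenic Treg and Tconv samples was sequenced with a TruSeq RNA kit, per the labels. Per the submitters' processing notes the tool was TopHat and the build mm10; for version, counter and annotation the sources used here say nothing. The deposited values are a normalized signal, gene counts that the authors divided by 1 size factor per library. Dividing by each library's smallest step gave whole reads for 100% of values (tolerance 0.001).

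The 11314 genes that reached 10 in 3 or more libraries were analysed as log2(value + 1) in limma 3.58.1 (R 4.3.3), with 4 group means over all libraries, a mean trend and 5 two-sided contrasts. Alternatives were edgeR 4.0.16 and DESeq2 1.42.0 on recovered reads, a pseudocount of 8, no filter, TMM factors, the groups compared alone, a GC trend removed, thinning to 2.64 M reads, a correlation of adjacent sample numbers (0.248) and each library left out. Replicates were numbered in record order, and p-values measure the spread between samples, which may be technical. The genes and lists were chosen with earlier results of these data known. Any of the 58 could be named; full values go to up to 4 genes per role with the smallest p in Treg and to genes apart from their role, and up to 4 genes per further list are named. Positions came from GENCODE vM21. The fit was tested on simulated data.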

Additional observations from a re-analysis of the deposited data

Results flagged for a closer look

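A library was picked out by its gap to the nearest other library of its group of 4, as a share of the group's range. Where that share exceeded Dixon's critical value it was flagged, and 23 of 174 groups met this. The rate of about 1 in 20 holds for independent groups of normally distributed values. These groups share the same libraries across genes, so the count cannot be measured against that rate. Of the 23, 13 were Treg WT replicate 4 as the highest of its group: Top2a at 217, Ncapg2 at 44.3, Nuf2 at 10.6, Kntc1 at 33.7, Ttk at 8.87, Birc5 at 25.7, Kif18b at 9.75, Kif2c at 16, Kif4 at 16, Tpx2 at 31.9, Anln at 16.8, Ube2c at 16 and Espl1 at 27.5. The other Treg WT libraries were at most 102 for Top2a, 29.7 for Ncapg2 and 7.59 for Kntc1. Tconv KO replicate 1 was apart for 4 genes, with Mki67 at 668, Ncaph at 59.4, Cdca3 at 48.9 and Kif2c at 19.2. The remaining Tconv KO libraries had between 345 and 370 for Mki67. Single libraries apart were Mki67 at 1017 in Treg KO replicate 3, Plk1 at 37.6 and Kif2c at 21.8 in Treg KO replicate 2, Ckap2 at 21.4 in Treg KO replicate 4 and Bub1b at 57.2 in Tconv KO replicate 3. Kif15 was low in Tconv KO replicate 4, at 17.8 against 39.4 to 43.7.

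The KO against WT difference of Arhgap11a was larger in Treg than in Tconv by 1.04 on the log2 scale in limma's interaction test. That interaction passed in only 11 of the 24 alternative settings.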

How the results depend on the processing

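In Treg KO against WT, the 58 genes gave between 35 and 49 calls without single libraries and between 40 and 47 under the other settings, always within 1.5 times the 46 reported. In Tconv KO against WT, 8 calls became 17 with DESeq2, 3 with the groups compared alone and 4 with thinned reads, and ranged from 2 to 13 without single libraries. The interaction gave 2 calls with DESeq2, 0 with no filter, 0 with thinned reads and 0 to 1 without single libraries. Treg KO against Tconv KO, with 11 calls, gave 17 with a pseudocount of 8, 5 with thinned reads, 19 with a correlation of adjacent sample numbers and 7 to 18 without single libraries. Treg WT against Tconv WT stayed within 5 to 10. The cause of these moves was not tested, except that fewer libraries or reads enter some fits. Signs turned for genes that had not passed: Smc4 in Treg (-0.17 with the GC trend removed, -0.02 without Treg WT replicate 4, and -0.12 to 0.12 without single libraries), Cenpa in Treg (0.00 with the GC trend removed) and Prc1 in Tconv (-0.02 with the GC trend removed, -0.04 to 0.27 without single libraries). Treg KO libraries held 2.64 to 4.71 M reads, which limits genes with few reads. The labels give the groups no shared replicate numbers, so no replicate block was fitted. Pairing of Treg and Tconv was tried only through adjacent sample numbers of 1 genotype, with an estimated correlation of 0.248, which left 46 calls in Treg, 7 in Tconv and 1 in the interaction and gave 10 between the WT groups.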
